A study of Homo sapiens with 2 samples.

Results

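The H4K5ac peaks of distal chromosome 9p are described here, that is, all peaks on chromosome 9 with a summit below 30 Mb of hg38. They numbered 5474 of the 378228 peaks in both lists, with 3412 of 258195 in the hypoxia list and 2062 of 120033 in the normoxia list. The cells were FaDu, an established human head and neck cancer line. One library came from cells kept at 1% oxygen for 18 h (hypoxia) and the other from cells kept in normoxia, whose oxygen level the labels do not give. The protocol also mentions METTL4 knockdown, although neither library is labelled as a knockdown. The labels name the target as H4K5Ac, whereas the design text names another histone mark. Each group is 1 library of 1 cell line, so no test between the groups was possible and the differences below have no replicate check. The members were chosen by summit position, in a region selected on its peak numbers in these lists, so those numbers are a description.

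Histone H4 acetylated at lysine 5 is a mark of open, active chromatin. It is laid down by histone acetyltransferases, read by bromodomain proteins and concentrated at promoters and enhancers. Distal 9p carries JAK2, the kinase of cytokine receptors, next to CD274 and PDCD1LG2, the ligands of the immune checkpoint receptor PD-1, and further in the cell cycle inhibitor genes CDKN2A and CDKN2B. In squamous carcinomas the arm is known for gains of the JAK2 and CD274 segment and for losses at CDKN2A. In chromatin from a cell population, fewer cells with a mark and less mark per cell cannot be told apart.

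The sequences of 6 gene starts are printed because these genes anchor the results below, either as named genes of the region or as its highest peaks. Each is the 250 bases before the start of the gene, read 5′ to 3′ on the gene's strand, from RefSeq (GRCh38.p14). Capitals mark ACGTG and GCGTG, the core letters of a hypoxia response element, and TGANTCA, the AP-1 motif, on either strand.
KDM4C (chr9:6757723-6757972, plus strand): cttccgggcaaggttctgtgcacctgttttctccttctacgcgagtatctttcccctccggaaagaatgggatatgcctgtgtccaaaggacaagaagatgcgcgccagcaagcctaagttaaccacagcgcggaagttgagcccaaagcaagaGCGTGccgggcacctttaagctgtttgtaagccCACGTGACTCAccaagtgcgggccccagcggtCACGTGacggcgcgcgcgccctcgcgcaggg
PTPRD (chr9:10613003-10613252, minus strand): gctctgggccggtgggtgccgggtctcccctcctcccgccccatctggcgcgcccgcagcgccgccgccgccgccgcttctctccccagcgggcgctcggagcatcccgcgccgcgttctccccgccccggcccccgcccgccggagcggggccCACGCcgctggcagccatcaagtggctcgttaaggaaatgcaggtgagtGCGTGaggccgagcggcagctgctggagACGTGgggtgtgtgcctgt
KLHL9 (chr9:21335405-21335654, minus strand): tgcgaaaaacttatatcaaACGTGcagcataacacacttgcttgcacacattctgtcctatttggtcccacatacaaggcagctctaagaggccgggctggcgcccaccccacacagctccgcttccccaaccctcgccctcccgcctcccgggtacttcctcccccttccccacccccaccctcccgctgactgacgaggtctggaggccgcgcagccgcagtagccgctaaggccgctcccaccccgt
DMAC1 (chr9:7799779-7800028, minus strand): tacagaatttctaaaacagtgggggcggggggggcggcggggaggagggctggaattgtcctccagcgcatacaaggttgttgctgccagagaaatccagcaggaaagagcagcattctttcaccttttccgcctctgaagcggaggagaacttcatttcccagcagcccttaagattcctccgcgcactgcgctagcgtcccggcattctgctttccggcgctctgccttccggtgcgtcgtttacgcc
JAK2 (chr9:4984140-4984389, plus strand): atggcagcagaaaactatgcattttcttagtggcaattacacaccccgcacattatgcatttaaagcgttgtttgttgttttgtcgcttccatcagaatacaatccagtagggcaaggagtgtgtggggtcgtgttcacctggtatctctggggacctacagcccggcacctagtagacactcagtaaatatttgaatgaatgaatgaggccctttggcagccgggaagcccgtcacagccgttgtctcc
CD274 (chr9:5450292-5450541, plus strand): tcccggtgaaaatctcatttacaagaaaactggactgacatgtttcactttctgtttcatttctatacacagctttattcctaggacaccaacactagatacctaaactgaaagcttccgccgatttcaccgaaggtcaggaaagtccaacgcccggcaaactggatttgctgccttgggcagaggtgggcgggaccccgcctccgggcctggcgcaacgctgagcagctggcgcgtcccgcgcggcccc
The KDM4C window held 4 ACGTG matches, since each of its CACGTG stretches reads the same on both strands, besides 1 GCGTG. The AP-1 letters of KDM4C overlap the first CACGTG. Of the 13 windows searched (the 11 genes that define the region's named loci, KLHL9 and DMAC1), 5 held ACGTG or GCGTG and 1 held TGANTCA. Over 27305 RefSeq windows of the same length, 43.1% held ACGTG or GCGTG and 6.60% held TGANTCA. No match means only that these letters are absent from this window.

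Distal 9p had more H4K5ac peaks in hypoxia, and the excess was small among all peaks and large among strong ones. Peaks whose −log10 q-value in their own list reached 10 are called strong. The hypoxia list held 3412 peaks and the normoxia list 2062, which gives a ratio of 1.65 (95% counting interval 1.57 to 1.75). Over the rest of the genome the ratio was 2.16 (2.14 to 2.17). On distal 9p 767 hypoxia and 212 normoxia peaks were strong, which gives 3.62 (3.10 to 4.23), and the rest of the genome had 1.61 (1.59 to 1.64). Distal 9p thus lay below the rest of the genome by all peaks and above it by strong peaks. The remainder of chromosome 9 had ratios of 2.23 for all and 1.47 for strong peaks. Intervals cover counting error only, and peaks are not replicates.

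Most of the peaks lay in a single dense stretch from 3.5 to 19.5 Mb, present in both libraries. The copy number of this stretch in the cells is unknown here, and peak numbers, pileups and backgrounds were not corrected for it. It was drawn after the values were seen, as the longest run of 500 kb windows with at least 20 hypoxia peaks each. The same rule with 10 normoxia peaks gave the same limits. The stretch held 3064 hypoxia and 1873 normoxia peaks, of which 704 and 168 were strong. The windows inside held 39 to 144 hypoxia peaks and 13 to 86 normoxia peaks. The window just before the stretch held 7 hypoxia and 4 normoxia peaks, against 79 and 41 in its first window. At the far side the last window held 47 hypoxia and 24 normoxia peaks, and the window after it held 7 and 9. A fall across each edge follows from how the stretch was drawn. The 3 windows past the far edge held 6 to 13 hypoxia and 4 to 14 normoxia peaks each. The low edge lies near the start of RFX3, a ciliogenesis transcription factor gene, and the high edge lies just past RPS6, a ribosomal protein gene, and ACER2, a ceramidase gene.

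**Figure D1:**
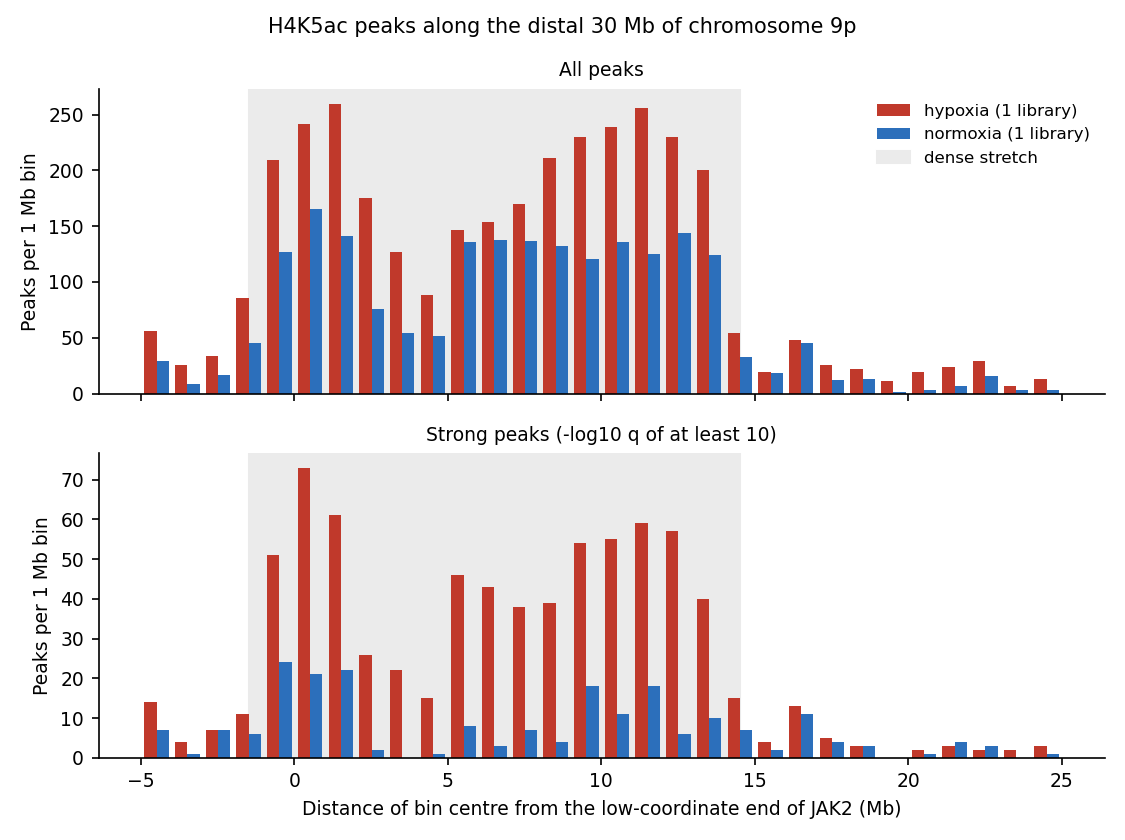
Peaks per 1 Mb bin against the distance of the bin centre from the low-coordinate end of JAK2, for all peaks (top) and strong peaks (bottom), with hypoxia bars left of normoxia bars and 1 library each. Bins wholly inside the shaded dense stretch held 88 to 260 hypoxia and 52 to 165 normoxia peaks, and those wholly outside held 7 to 56 and 1 to 45.

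In 1 Mb bins the strong peak excess followed the dense stretch. Of 30 bins, 20 held at least 10 strong peaks in the lists together, and 16 of these had (hypoxia + 1) / (normoxia + 1) of at least 2, whereas none had as large a ratio in the other direction. Genome-wide 19.2% of such bins passed this fold in hypoxia and 0% in normoxia. All 15 bins wholly in the dense stretch passed it, with ratios from 2.08 to 23 and a median of 4.88. A bin could enter through its hypoxia peaks alone, as that from 8 Mb did with 22 and 0, and so could bins elsewhere. The stretch was itself drawn on peak numbers, so these counts are a description. Of the 13 bins wholly outside, 3 held enough strong peaks and none passed. The median over bins of the rest of the genome was 1.48. Among the 20 bins with the highest ratio in the genome, 5 lay on distal 9p. By all peaks, 13 of the 15 bins of the stretch lay below the median of the rest of the genome, which was 2.12.

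Among the bins with the most unequal strong numbers were those of PTPRD, of the interval without protein-coding genes after it and of CNTLN and SH3GL2. From 8 Mb there were 22 strong hypoxia peaks and none in normoxia. This is 7.33-fold more against a floor of 3 counts per library, and the exact interval starts at 5.48. From 11 Mb strong hypoxia peaks numbered 43 and strong normoxia peaks 3, for a ratio of 14.3 (4.59 to 72.2), although all peaks numbered 154 and 138. From 17 Mb there were 57 and 6, a ratio of 9.50 (4.11 to 27.0). The gene-rich bins were less unequal, with 51 strong hypoxia and 24 strong normoxia peaks from 4 Mb (2.13, 1.28 to 3.61). From 5 Mb, the bin of JAK2 and CD274, there were 73 and 21 (3.48, 2.12 to 5.95).

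**Figure D2:**
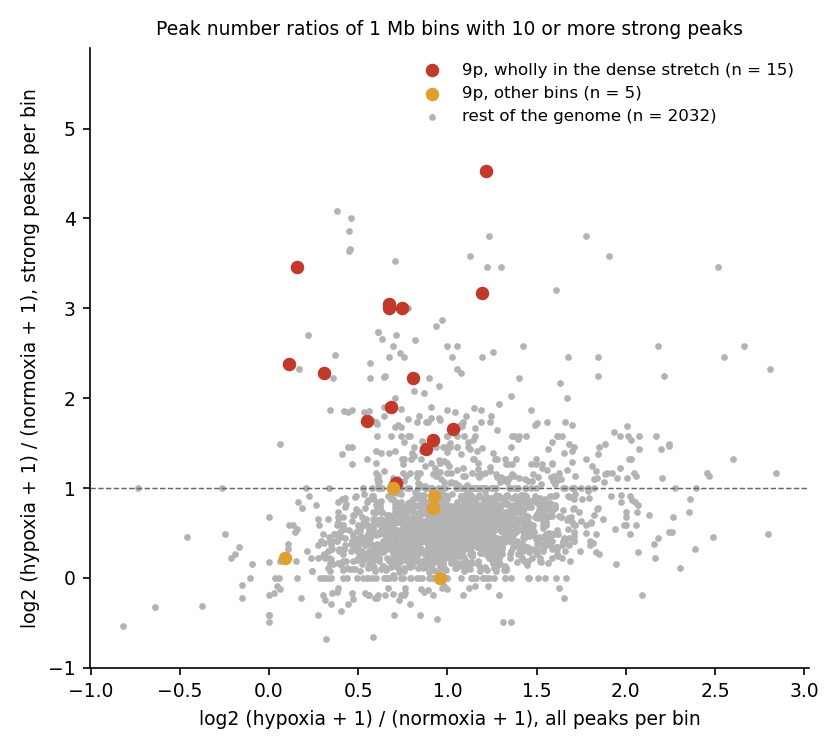
Each point is a 1 Mb bin with 10 or more strong peaks in the lists together, placed by the log2 ratio of hypoxia to normoxia peak numbers for all peaks (horizontal) and strong peaks (vertical), with 1 added to each number. The 15 bins of the dense stretch lie above the dashed line (ratio 2), while most of the 2032 bins of the rest of the genome lie below it.

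The ratio of hypoxia to normoxia peak numbers varied with peak strength and was highest just past the threshold. In the dense stretch, peaks with a −log10 q-value from 10 to below 20 came to 521 for hypoxia and 69 for normoxia (ratio 7.55, 5.87 to 9.85), against 1.70 in the rest of the genome. From 20 to below 50 the ratio was 2.03 (1.48 to 2.83), against 1.22. At 50 or more the stretch had 63 hypoxia and 40 normoxia peaks, a ratio of 1.58 (1.04 to 2.40), against 2.34. Below the threshold, from 5 to below 10, there were 1198 hypoxia and 353 normoxia peaks (3.39, 3.01 to 3.83), against 3.10 in the rest of the genome; this class held the largest difference in number. The weakest class, below 5, went the other way, with 1162 hypoxia and 1352 normoxia peaks (0.86, 0.79 to 0.93), against 2.09 in the rest of the genome. With the threshold at 20 the ratio over distal 9p was 1.83 (1.46 to 2.30), close to the 1.55 of the rest of the genome.

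Peaks shared 1 to 1 between the lists allowed the reads at each summit to be set side by side. The pileup, the number of reads covering the summit, was derived from the deposited fold and p-value. For 1079 pairs in the dense stretch the median pileup was 25 reads in hypoxia and 20 in normoxia, and the median ratio within pairs was 1.20 (quartiles 0.96 and 1.52). For 68398 pairs in the rest of the genome the medians were 32 and 26 reads, and the ratio was 1.27 (1.00 and 1.58). The pileup ratio of the stretch was therefore no higher than elsewhere. The median −log10 q-value of these pairs was 8.16 in hypoxia and 4.12 in normoxia in the stretch, against 9.91 and 5.96 in the rest. In the stretch 27.9% of pairs were strong in hypoxia alone, 10.8% in both and 1.85% in normoxia alone. In the rest of the genome these shares were 18.0%, 31.8% and 3.46%. The pairs of the stretch thus had hypoxia values spread around the threshold and normoxia values mostly under it. Reads were not scaled for depth, which is not given.

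**Figure D3:**
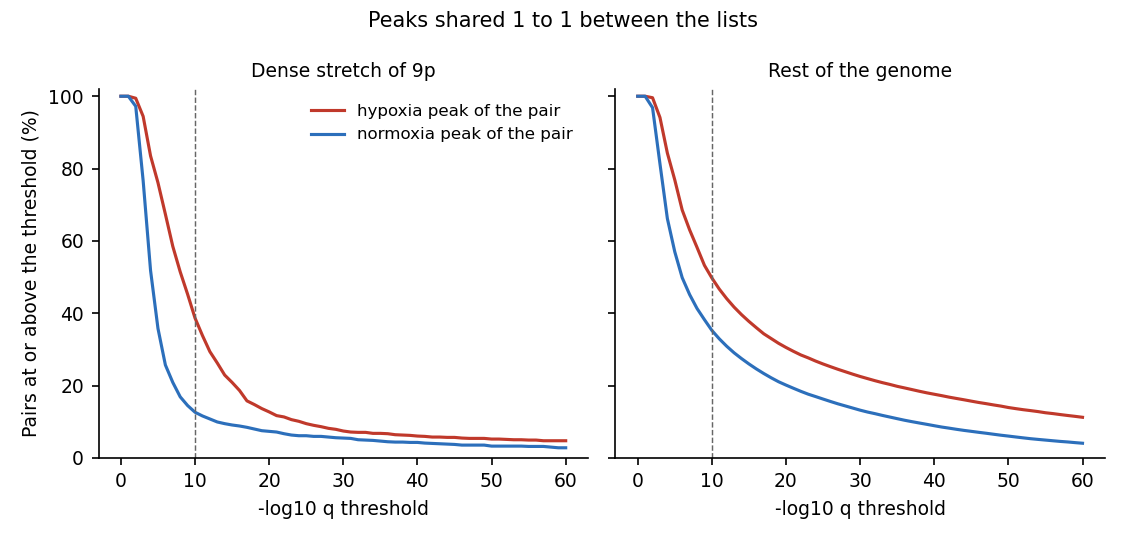
Percentage of 1-to-1 shared pairs whose peak reaches a −log10 q-value threshold, in the dense stretch (left, 1079 pairs) and the rest of the genome (right, 68398 pairs), for the hypoxia and the normoxia peak of each pair. At the dashed threshold of 10 the curves of the stretch are far apart, and they draw close at higher thresholds.

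The local background of the peaks was raised along much of the stretch in both libraries. The background, derived in the same way, is the number of reads that the peak caller took as local noise, and the lowest value found over the genome was 3.24 reads for hypoxia and 3.13 for normoxia. In the stretch 85.0% of hypoxia and 93.0% of normoxia peaks had a background more than 1% above that value. In 9p outside the stretch the shares were 32.2% and 55.6%, and in the rest of the genome 65.5% and 81.0%. By bin, the median background of the stretch ranged from 3.24 to 7.16 reads in hypoxia and from 3.13 to 8.18 in normoxia. The highest hypoxia value was in the KDM4C bin from 6 Mb, at 7.16 reads against 7.55 in normoxia. The bin from 4 Mb had 5.96 reads in hypoxia and 8.18 in normoxia, the highest normoxia value. Across PTPRD, from 8 to 10 Mb, it was 3.24 to 3.31 in hypoxia and 3.13 to 3.14 in normoxia. The part of this background in the peak numbers was not tested.

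**Figure D4:**
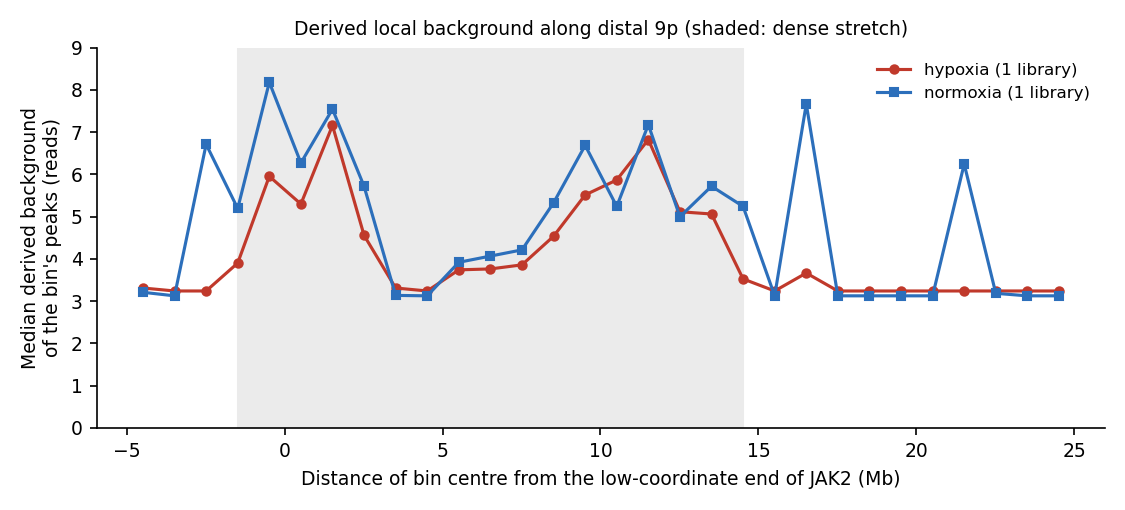
Median derived background of the peaks in each 1 Mb bin, in reads, against the distance of the bin centre from the low-coordinate end of JAK2, with 1 library per group. In the shaded dense stretch the values reach 7.16 reads in hypoxia and 8.18 in normoxia, and in bins wholly outside they reach 3.67 and 7.67.

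Peaks of the dense stretch were mostly away from gene ends. Of the stretch's peaks, 2.64% in hypoxia (95% exact binomial interval 2.10 to 3.28%) and 3.95% in normoxia (3.11 to 4.93%) overlapped the 1000 bp either side of a protein-coding gene's ends. In the rest of the genome the shares were 9.75% and 16.3%. Among strong peaks the stretch had 8.24% in hypoxia and 25% in normoxia, against 32.6% and 43.6%. In 9p outside the stretch the shares of all peaks were 11.8% and 18.0%. Summits within a protein-coding span made up 55.8% of hypoxia and 56.4% of normoxia peaks in the stretch, near the 53.6% and 55.3% of the rest. The gene-end shares are of peaks and not of genes. Of the stretch's 50 protein-coding genes, 45 (90%) had an end marked in both lists, against 69.4% of genes in the rest of the genome.

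Strong hypoxia peaks without a normoxia counterpart made up 27.8% of the strong hypoxia peaks of distal 9p (213 of 767), against 13.4% genome-wide. Strong normoxia peaks without a hypoxia counterpart made up 4.25% (9 of 212), against 1.66% genome-wide. Overlap means at least 1 shared base. Of strong peaks, 72.2% in hypoxia (68.9 to 75.4%) and 95.8% in normoxia (92.1 to 98%) overlapped the other list. Outside the dense stretch 92.1% of the 63 strong hypoxia peaks did so. All peaks overlapped at 40.3% in hypoxia and 67.4% in normoxia, against 32.6% and 68.7% in the rest of the genome. Each list was screened against one of another length, so these shares are not on equal terms. Strong peaks were narrower in hypoxia, with a median of 485 bp against 839 bp in normoxia; the rest of the genome had 621 and 819 bp.

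With no peak of the other list within 2000 bp there were 142 strong hypoxia peaks (18.5%), against 9.01% genome-wide, and 4 strong normoxia peaks (1.89%), against 0.477% genome-wide. The strongest hypoxia one lay inside PTPRD (chr9:9931221-9931599), with a fold of 10.6 over background, a −log10 q-value of 31.7 and a pileup of 44 reads. The next lay inside ADAMTSL1 (chr9:18315336-18315817), with 7.52, 30.6 and 57 reads. The others of the first 5 lay beyond the PTPRD start (chr9:11196736-11197309), inside PTPRD (chr9:9132008-9132326) and between KDM4C and DMAC1 (chr9:7549152-7549953). The nearest of these 5 to a gene start was 158550 bp away. The strongest normoxia one lay between PTPRD and TYRP1 (chr9:12297443-12297863), with a fold of 7.17, a −log10 q-value of 16.0 and 29 reads. Folds are the authors' values within each library, and a difference between folds of the 2 lists was not scaled for depth.

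The highest folds of distal 9p were at shared peaks. KLHL9, which encodes an adaptor of a ubiquitin ligase in mitosis, had a start peak with a fold of 22.8 and 209 reads in hypoxia, against 13.3 and 120 reads in normoxia. DMAC1, a factor for assembly of respiratory complex I, had 19.3 and 275 reads in hypoxia, against 14.2 and 204 reads in normoxia. Away from gene starts, a peak inside ADAMTSL1 (chr9:18649951-18650517 in hypoxia) had 19.6 and 198 reads in hypoxia, against 13.1 and 115 in normoxia. A peak 32111 bp from IL33, the gene of an epithelial alarmin cytokine (chr9:6182756-6183311 in hypoxia), had 18.1 and 244 reads in hypoxia, against 12.5 and 163 in normoxia. The IL33 span itself held 9 hypoxia and 6 normoxia peaks and none at its start. Inside the noncoding gene CDKN2B-AS1 a peak (chr9:22085317-22085797 in hypoxia) had 16.7 and 70 reads in hypoxia, against 7.35 and 35 in normoxia. Inside BNC2 a peak (chr9:16726610-16727630 in normoxia) had a fold of 16.3 in hypoxia, against 11.2 in normoxia. All of these were thus called in both conditions.

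By gene span, 48 of 109 protein-coding genes of the region (44.0%) had more strong peaks in hypoxia and 7 (6.42%) had fewer, against 29.7% and 4.7% of all protein-coding genes. Peaks in overlapping spans count for each gene. The large differences belonged to long genes within the dense stretch. PTPRD, a receptor tyrosine phosphatase that acts as a tumour suppressor (chr9:8314246-10613002), held 48 strong hypoxia and 8 strong normoxia peaks, a ratio of 6 (2.81 to 14.7). All its peaks numbered 256 and 162. ADAMTSL1, a secreted matrix protein gene (chr9:17906633-18910950), held 41 and 10 strong peaks (4.10, 2.02 to 9.18), and 194 and 130 in all. CCDC171 held 33 and 4, CNTLN, the gene of a centrosomal linker protein, 29 and 5, BNC2, a zinc finger gene, 26 and 5, FREM1, an extracellular matrix gene, 11 and 1, and UHRF2, a ubiquitin ligase gene of the UHRF family, 10 and 1. The 7 genes with fewer included VLDLR (0 and 2), CDKN2A (2 and 3), DENND4C (0 and 1), ELAVL2 (1 and 2) and LURAP1L (2 and 3), all differences of 1 or 2 peaks.

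**Figure D5:**
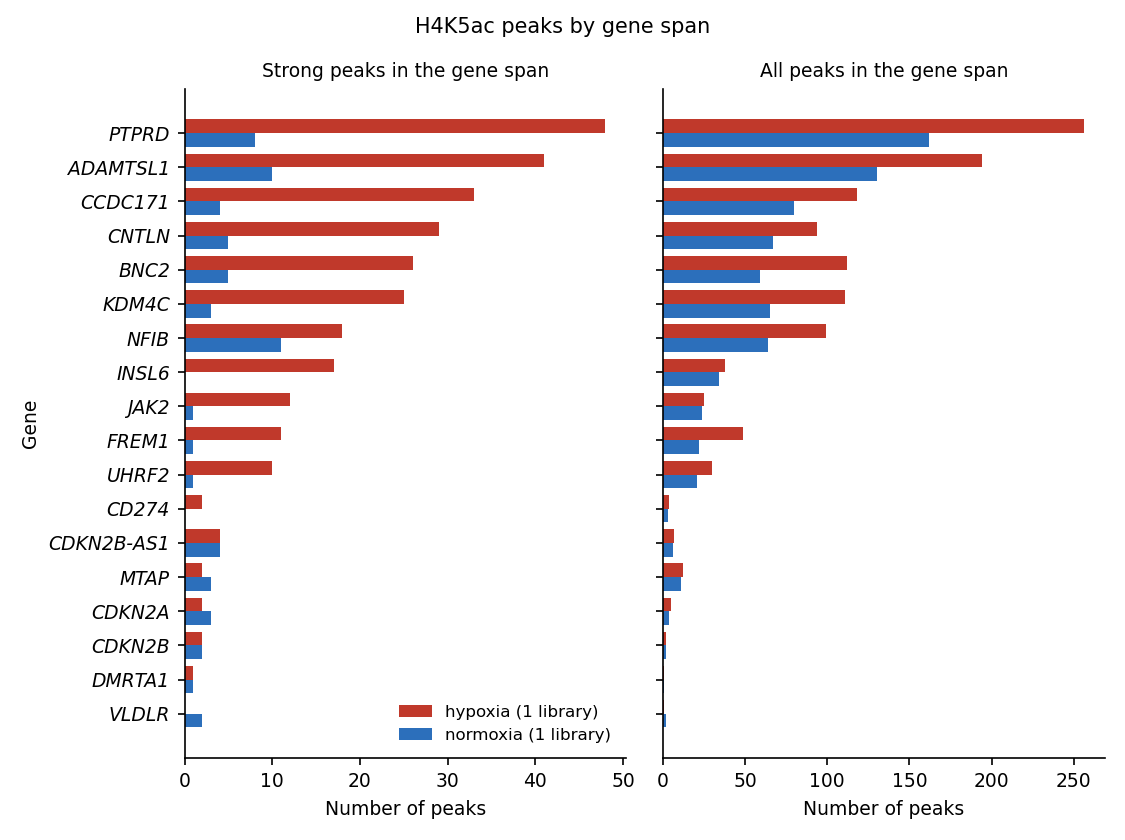
Number of strong peaks (left) and of all peaks (right) with a summit in the span of each named gene, hypoxia above normoxia, 1 library each. PTPRD leads with 48 strong hypoxia and 8 strong normoxia peaks, whereas the genes from CDKN2B-AS1 down differ by at most 2 strong peaks.

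Within PTPRD the inequality varied along the gene. In successive 500 kb tiles from its low-coordinate end, strong hypoxia peaks numbered 12, 8, 2, 17 and, in the shorter last tile, 9. Strong normoxia peaks numbered 0, 0, 0, 4 and 4 in the same tiles. All peaks numbered 74, 48, 35, 59 and 40 in hypoxia, against 27, 17, 19, 60 and 39 in normoxia. The tiles at the transcription start side thus held nearly equal numbers of peaks, and the far tiles had more in hypoxia. The start itself carried a peak in both lists, with a fold of 12.8 and 233 reads in hypoxia and 9.44 and 135 reads in normoxia, over the sequence printed above.

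The interval between PTPRD and TYRP1, the gene of a melanosome enzyme, is free of protein-coding genes (gene-free below) and was dense in both lists. Over its 2.08 Mb (chr9:10613003-12693384) it held 339 hypoxia and 288 normoxia peaks, a ratio of 1.18 (1.00 to 1.38). Strong peaks there numbered 97 and 6, a ratio of 16.2 (7.16 to 45.1). This was 163 hypoxia and 138 normoxia peaks per Mb. The gene-free intervals past the stretch, such as that between TUSC1 and CAAP1 over 1.16 Mb, held 15.5 and 3.44 peaks per Mb, with 0 and 1 strong. Gene-free intervals inside the stretch were denser than those past it, which follows in part from how the stretch was drawn. The noncoding gene LOC105375974 in the dense interval, named after its values were seen, held 46 hypoxia and 33 normoxia peaks, with 16 and 0 strong.

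KDM4C encodes a histone demethylase of H3K9 and H3K36 that needs oxygen as a cosubstrate. Its span (chr9:6720863-7175648) held 111 hypoxia and 65 normoxia peaks, of which 25 and 3 were strong, a ratio of 8.33 (2.54 to 43.1). The start in RefSeq, within the span, carried a wide peak in both lists, with 209 reads over a background of 42.2 in hypoxia and 197 reads over 43.1 in normoxia. At the ends of the span there was a weak hypoxia peak (fold 2.24, −log10 q-value 3.50) and none in normoxia. The count of KDM4C as a gene with an end peak in hypoxia only rests on that weak peak, and its start was marked alike in both lists.

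Across the JAK2 to PDCD1LG2 segment (chr9:4984390-5571282) peak numbers were close and strong peaks were not. It held 124 hypoxia and 99 normoxia peaks, a ratio of 1.25 (0.95 to 1.65), and 49 and 9 strong peaks (5.44, 2.65 to 12.6). JAK2 held 25 and 24 peaks with 12 and 1 strong. Its start peak had 278 reads and a fold of 9.01 in hypoxia, against 205 reads and 7.09 in normoxia. INSL6, an insulin-like peptide gene whose span overlaps JAK2, held 38 and 34 peaks with 17 and 0 strong. This is 5.67-fold more against the floor of 3 counts, and the exact interval starts at 4.13.

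CD274 encodes PD-L1 (chr9:5450542-5470554). It held 4 hypoxia and 3 normoxia peaks in its span, with 2 and 0 strong. Its start had a pair of peaks in each list. The peak before the start (hypoxia summit at -773 bp, normoxia summit at -764 bp) had 55 reads over a background of 15.1 in hypoxia, against 114 over 25.6 in normoxia. The peak just after the start had 68 reads over 15.5 in hypoxia, against 70 over 26.4 in normoxia. Its −log10 q-value was 20.2 in hypoxia and 9.89 in normoxia, just short of strong. The peak before the start was strong in both lists (12.9 and 34.5) but lies outside the span, so the 2 and 0 leave it out. The upstream peak thus had fewer reads in hypoxia, whereas 68.3% of the shared pairs of the stretch had more, and both backgrounds at this start were lower in hypoxia. PDCD1LG2 held 16 and 10 peaks with 3 and 1 strong.

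NFIB, a nuclear factor I transcription factor gene (chr9:14081843-14532077), was among the less unequal long genes. It held 99 hypoxia and 64 normoxia peaks with 18 and 11 strong, a ratio of 1.64 (0.73 to 3.83) whose interval includes equality. Its start peak had 318 reads in hypoxia and 265 in normoxia.

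The CDKN2A locus lay outside the dense stretch and had nearly equal strong peak numbers. From MTAP to DMRTA1 (chr9:21802636-22455740) there were 42 hypoxia and 28 normoxia peaks (1.5, 0.91 to 2.51), and 10 and 11 strong ones (0.91, 0.35 to 2.36). CDKN2A, which encodes the cell cycle inhibitors p16 and p14ARF, had its highest start peak at 154 reads and a fold of 7.09 in hypoxia, against 138 reads and 6.31 in normoxia. CDKN2B, the gene of the inhibitor p15, had 52 reads in hypoxia and 50 in normoxia. MTAP, a methionine salvage enzyme gene, had 78 and 49 reads at its highest start peak, and DMRTA1, a doublesex-related transcription factor gene, had 65 and 47. CDKN2B-AS1, the noncoding ANRIL gene, held 7 and 6 peaks with 4 strong in each list.

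Gene ends were marked in both lists for 71 of the 109 protein-coding genes, in hypoxia only for 5, in normoxia only for none and in neither for 33. The 5 were WASHC1, DMRT1, KCNV2, KDM4C and CER1, named because they are the whole class. The class made up 4.59% (1.51 to 10.4%), against 11.7% of all protein-coding genes. Genes marked in both lists made up 65.1% here, against 69.4% in the rest of the genome. Those marked in neither made up 30.3%, against 17.8%. The 2 parts of the region differed: 45 of 50 genes (90%) were marked in both lists in the dense stretch, and 26 of 59 (44.1%) outside it. A count of 0 of 109 in normoxia only allows a share of up to 2.75% by the floor of 3 counts and 3.33% by the exact interval, against 1.08% of all genes. WASHC1 has near-identical subtelomeric copies, so its reads are uncertain. DMRT1, a gonadal transcription factor gene, had a hypoxia peak 56 bp past its start with a fold of 4.77 and 21 reads. CER1, the gene of a secreted BMP and Nodal inhibitor, had one with 4.56 and 28 reads. Neither was strong.

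Among the lists of genes of the region, the type I interferon cluster had no marked gene end in either condition. All 16 genes lacked a gene-end peak, and the cluster from IFNB1 to IFNE (chr9:21077104-21482313) held 5 hypoxia and 3 normoxia peaks, including those at KLHL9 within it. The IFNA genes are near-identical copies, so reads there are uncertain. In the list of transcription and chromatin genes, which also holds the secreted CER1, the RNA-binding ELAVL2 and the nuclear import gene RANBP6, 13 of 16 carried an end peak in each list and 3 (DMRT1, KDM4C and CER1) only in the hypoxia one. Strong peaks were more numerous in hypoxia for 9 of the 16 and fewer for 2. GLIS3, a zinc finger gene of pancreatic and thyroid development, held 17 in hypoxia and 9 in normoxia. Among 9 cytokine, kinase and checkpoint genes, 7 carried an end peak in each list, 2 in none, and 7 had more strong peaks in hypoxia and none fewer. Those with more strong peaks all lie within chr9:4984390-6257983 of the dense stretch, where the JAK2 and INSL6 spans overlap. TEK, outside the stretch, had no strong peak in either list. Gene class and location thus cannot be told apart here.

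The 10 long adhesion, matrix and synaptic genes held 129 strong hypoxia and 30 strong normoxia peaks in all, with 9 genes having more in hypoxia and none fewer. SH3GL2, an endocytic adaptor gene, held 9 and 1. Among 5 lipid and hypoxia-linked genes in the region, 4 carried an end peak in each list, and KDM4C only in the hypoxia one. PLIN2, a lipid droplet coat gene induced by hypoxia, had a start peak of 133 reads in hypoxia and 91 in normoxia. VLDLR, a lipoprotein receptor gene, had its highest start peak at 52 reads in hypoxia and 33 in normoxia. Its 2 strong hypoxia peaks had summits just before the span, which is why the span itself counted 0 and 2. Among 13 housekeeping genes, 12 carried an end peak in each list and 1 in none. Strong peaks were more numerous in hypoxia for 3, fewer for 1 and equal for 9. CDC37L1, an HSP90 cochaperone gene, had 10 strong hypoxia and 4 strong normoxia peaks in its span or within 25 kb of it, and RCL1, a gene of ribosomal RNA processing, had 8 and 4. Each list's strong peak counts stand beside the 48 and 7 of all 109 genes and a median difference of 0. Its gene-end counts stand beside the 69.4% of genes marked in both lists in the rest of the genome.

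The combination of a strong peak ratio of at least 2 with an all-peak ratio below the median of the rest of the genome, looked for after the values were seen, was found in 14 of the 20 bins of distal 9p with enough strong peaks. It was also found in 181 of 2032 such bins elsewhere (8.91%), so it was not particular to 9p. The longest runs of such bins elsewhere spanned 12 Mb each. Chromosome 3 from 157 to 169 Mb had ratios of 1.63 (1.5 to 1.76) for all and 3.10 (2.45 to 3.95) for strong peaks, and chromosome 8 from 103 to 115 Mb had 1.36 (1.26 to 1.46) and 5.06 (3.91 to 6.62). The 3 regions named next, chosen for their raised peak numbers, had higher ratios of all peaks than the dense stretch. Chromosome 11 from 68 to 73 Mb had ratios of 2.22 for all and 3.31 for strong peaks, with 593 strong hypoxia and 179 strong normoxia peaks. Chromosome 5 from 0 to 20 Mb had 2.81 and 2.79, and chromosome 14 from 70 to 98 Mb had 2.11 and 2.92. The dense stretch of 9p had 1.64 (1.54 to 1.73) and 4.19 (3.54 to 4.99). No test of these differences was made.

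At the limit of the region the last hypoxia summit inside was at 29969890 (fold 3.07) and the first outside at 30107048 (fold 5.42). The last normoxia summit inside was at 29450686 (4.12) and the first outside at 30107062 (3.39). Gene ends of 5 of 6 squamous epithelial markers carried peaks in each library, and TP63 did so in the hypoxia library alone. Only the outer ends of each span counted, so starts inside a span such as that of TP63 were not covered. Among markers of other cell types, COL1A2 carried end peaks in each, CD3E, PECAM1 and HBB in the hypoxia library alone, and PTPRC in none. In the rest of the genome 69.4% of protein-coding genes were marked in both lists and 11.8% in hypoxia only. These counts therefore cannot check the cell label.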

How the data were processed

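H4K5ac ChIP-seq libraries of FaDu cells, 1 from hypoxia and 1 from normoxia, were sequenced as single-end reads (labels' protocols). For each library the authors deposited a separate list of peaks on hg38; the submitters' processing notes name MACS2 and SICER. No version, setting or control is given in the sources used here. The authors' columns are a score, a fold over background (ratio), the −log10 of the p-value and of the q-value, and the summit position. The deposited score was not used further. Pileup and background were solved from the fold, taken as (pileup + 1) / (background + 1), and the p-value, taken as a Poisson tail; pileups came out whole, within 0.02, in 100% of peaks. The solver and overlaps were checked on simulated data. Read totals are not given. A marker of another cell type is not reported here.

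Peaks were assigned by summit (scipy 1.17.1, pandas 2.3.3). Gene spans and starts came from RefSeq GRCh38.p14 by symbol, for 19970 protein-coding genes; 2 listed genes, ACO1 and TOPORS, lie outside the region. Intervals are 95% exact (Clopper-Pearson). With 1 library per condition no test was run. The region, gene lists and thresholds were chosen with earlier results of these data known. Genes named were those of the region's definition, up to 4 examples per list, the 10 spans with the largest strong peak excess and 5 with the largest deficit, and the leading peaks; others are said to be named after their values were seen or illustrate a count. Alternatives changed the q-value threshold, list length, overlap, stitching, bin size and gene window.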

Additional observations from a re-analysis of the deposited data

How the results depend on the processing

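Of 24 alternative values for the 6 main results, 13 stayed within the main interval or within 1.5 times the main count, 11 moved and none reversed. The 13 include values that could not change when the hypoxia list was shortened. These are the strong peak ratio, the overlapped share of strong hypoxia peaks and the bin count. With strong peaks set at a −log10 q-value of at least 20, the strong peak ratio on distal 9p was 1.83 (221 hypoxia and 121 normoxia peaks). The overlapped shares were then 94.6% of hypoxia and 99.2% of normoxia peaks. Of 14 bins with enough strong peaks, 7 passed the ratio of 2. With the hypoxia list limited to the length of the normoxia list, the ratio of all peaks was 1.00, while strong peaks were unaffected by construction. Bins of 2 Mb gave 9 of 13 with enough strong peaks and bins of 500 kb gave 27 of 33, against 16 of 20 at 1 Mb. Genome-wide shares were not computed for these bin sizes or for the threshold of 20. Where only strong peaks counted in either list, 11 of 109 genes had a gene-end peak in hypoxia only, and the cause was not tested. The share of all protein-coding genes at this setting was not computed, so the 11 cannot be placed above or below it. Without the dense stretch, an alternative chosen after seeing the data, the strong peak ratio was 1.43 (0.96 to 2.15), the ratio of all peaks was 1.84 and the overlapped share of strong hypoxia peaks was 92.1%. A threshold of 5, also added later, gave 3.33. Leaving out a library was not possible with 1 per condition. No paired analysis was possible because each condition has 1 library. Depth is not given, and the unequal list lengths limit every comparison of peak numbers.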

Other observations

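Of 9 microRNA hairpins that the RefSeq table places in the region, the 3 inside the dense stretch each had peaks within 25 kb in both lists. The 500 kb windows of the stretch held a median of 98.5 hypoxia and 63 normoxia peaks, so a peak within 25 kb is common there. MIR3152, within ADAMTSL1, had 8 hypoxia and 9 normoxia peaks, with 3 and 0 strong. MIR101-2, within RCL1, had 12 and 5, with 2 and 1 strong. MIR4665 had 10 and 8, with 3 and 2 strong. Outside the stretch, MIR491 had 2 hypoxia and 3 normoxia peaks within 25 kb and no strong one. MIR31, a microRNA linked to squamous carcinoma, also lies outside and had 3 hypoxia and 4 normoxia peaks within 25 kb, with no strong one in either list. Its host gene MIR31HG had a start peak with 206 reads and a fold of 12 in hypoxia, against 111 reads and 6.90 in normoxia. These genes were chosen after their values were seen.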
